A study of Homo sapiens with 9 samples.

Results

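The CDK inhibitors are proteins that hold back cyclin-dependent kinases (CDKs), the enzymes that drive a cell through its division cycle. The 8 genes CDKN1A, CDKN1B, CDKN1C, CDKN2A, CDKN2B, CDKN2C, CDKN2D and CDKN3 were taken by gene name out of 61552 genes listed in every library. They were chosen with earlier results of these data known. RNA-seq was analysed for MDA-MB-231 cells, an established human triple-negative breast cancer line, left with 0 mM 2-deoxy-glucose (2-DG) as the control or given 10 mM or 20 mM 2-DG for 24 h, and each condition has 3 libraries. Cells take up 2-DG as they do glucose but cannot use it, which slows glycolysis. All 9 libraries came from the same line with a wild-type genotype label, in serum-containing medium, and the sources do not say whether the 3 libraries of a condition were separate cultures, so p-values measure the spread between these libraries, which may be technical.

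CDK inhibitors fall into families with different targets. The CIP/KIP proteins p21 (CDKN1A), p27 (CDKN1B) and p57 (CDKN1C) bind whole cyclin-CDK complexes and mainly restrain those of CDK2, while the INK4 proteins p16 (CDKN2A), p15 (CDKN2B), p18 (CDKN2C) and p19 (CDKN2D) bind CDK4 and CDK6 and keep cyclin D from joining them. CDKN3 differs from the rest, since it is a phosphatase that removes the activating phosphate from CDK2 and CDK1. In breast cancer cells the loss of p16 is common and p21 is known as an inhibitor that many kinds of stress raise.

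The deposited values were FPKM, that is, reads scaled by the length of the gene and the total of the library. Library totals recovered from these values ranged from 30974968 to 40843638 reads. A test was possible for 16570 genes with enough reads, among them 6 of the 8 CDK inhibitors. CDKN2A and CDKN2B had too few reads and are described by their values alone. All 6 markers of the mesenchymal MDA-MB-231 state, such as vimentin (VIM) and AXL, exceeded 10 FPKM in every library. Of the 7 luminal markers, 4 stayed under 1 FPKM in every library, with ESR1 and PGR at or near 0, whereas KRT19, a keratin, lay between 171 and 298 FPKM. The summed luminal markers lay between 259 and 306 FPKM in the control, 176 and 228 at 10 mM and 181 and 191 at 20 mM 2-DG, most of it KRT19, and the part of this shift in the results below was not tested.

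CDKN1A rose with 2-DG while the other detected inhibitors were lower, most of all CDKN2C and CDKN3. At 20 mM 2-DG the mean FPKM of CDKN1A was 1.63 times that of the control, and the control means of CDKN2C and CDKN3 were 5.43 and 4.96 times those at 20 mM. In RNA from whole cultures, fewer cells of a type, such as cells at one stage of the cycle, and less RNA per cell cannot be told apart. At 10 mM 2-DG, 1 of the 6 tested inhibitors was called higher and 4 were called lower at a Benjamini-Hochberg adjusted p under 0.05 from limma, where 12.1% of all tested genes were called higher and 17.5% lower. At 20 mM, 1 was called higher and 5 lower, with 15.4% and 21.6% of all tested genes called in these directions. When calls were instead made by size, at a log2 fold change beyond 1 in either direction with p below 0.05 before adjustment, CDKN2C, CDKN2D and CDKN3 were the 3 inhibitors called lower at 10 mM (1.16% of all genes) and the same 3 at 20 mM (1.96%), and 0 were called higher at either dose (0.579% and 0.966% of all genes). The comparisons of the 2 doses with the control share the control libraries, so they are not independent.

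**Figure D1:**
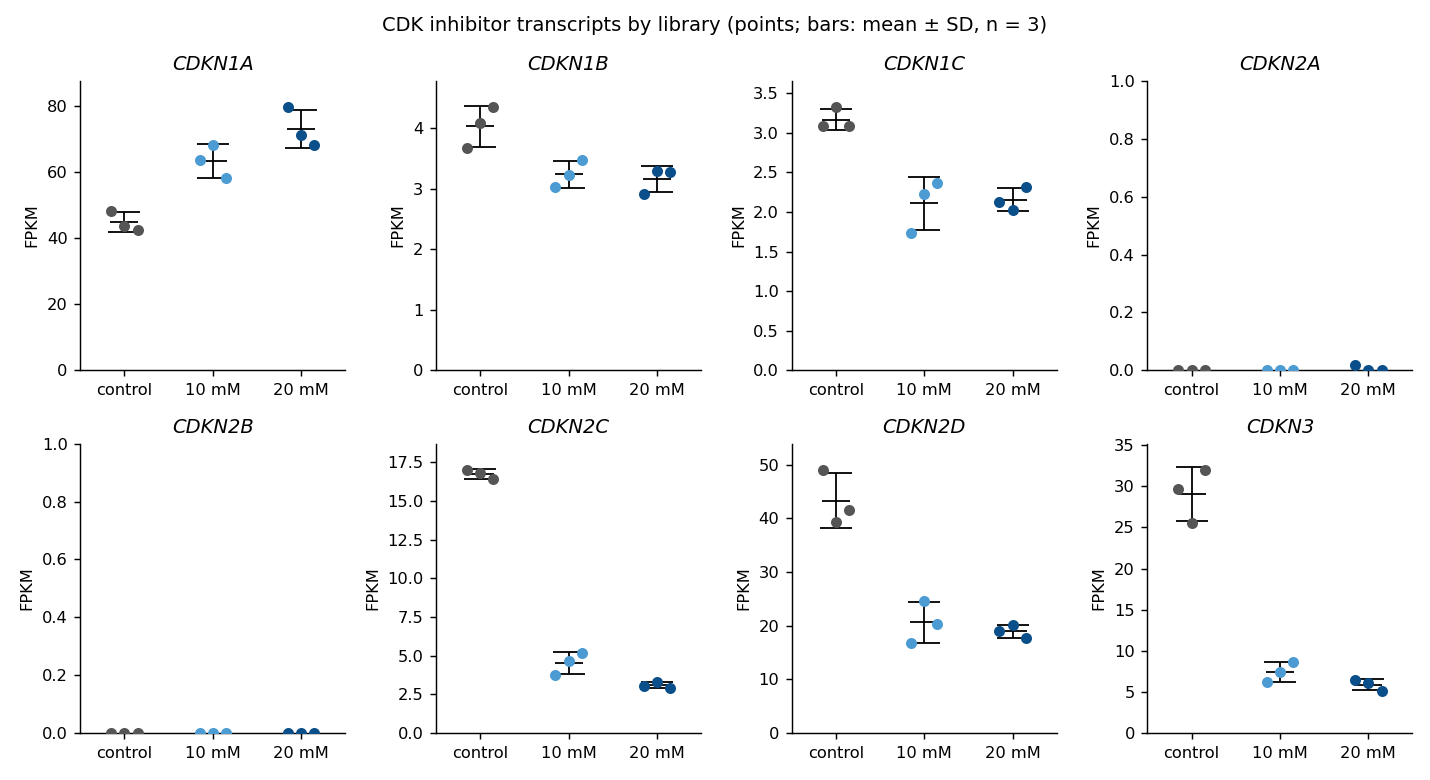
FPKM of the 8 CDK inhibitors (y axis, a separate linear scale for each gene) in the control and at 10 mM and 20 mM 2-DG (x axis), with 1 point per library and the mean ± SD of 3 libraries as bars, left out for CDKN2A and CDKN2B. CDKN1A is higher in every treated library, CDKN2C, CDKN2D and CDKN3 are lower in every treated library, and CDKN2A and CDKN2B lie at or near 0.

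CDKN1A (ENSG00000124762, chr6:36676460-36687339, plus strand, GRCh38) encodes p21, which stops cells before DNA synthesis when it is abundant. Its FPKM was 48.2, 43.7 and 42.5 in the control libraries, 63.5, 68.3 and 58.2 at 10 mM 2-DG and 79.6, 71.4 and 68.3 at 20 mM. All 6 treated libraries lay above the highest control, and the lowest library at 20 mM just exceeded the highest at 10 mM. The mean was 44.8 ± 3.00 FPKM in the control, 63.3 ± 5.08 with 10 mM and 73.1 ± 5.83 with 20 mM (SD, n = 3 each). CDKN1A rose by a log2 fold change of 0.49 at 10 mM (SE 0.0811, adjusted p = 0.00164 from limma) and of 0.69 at 20 mM (adjusted p = 0.000146), on the log2(FPKM + 1) scale used for every fold change here. At 20 mM it ranked 434th from the top among the 16570 tested genes. The groups of libraries did not overlap for CDKN1A at either dose, which held for 40.5% of all tested genes at 10 mM and 53.3% at 20 mM. The exons of CDKN1A share 146 bases with DINOL, a noncoding gene on the opposite strand. The strand setting of the counting is not given in the sources used here, so reads in these bases could belong to either gene, but DINOL was listed at no more than 0.191 FPKM.

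The promoter window of CDKN1A is shown since it is the one inhibitor that rose. The window comes from RefSeq (GRCh38.p14) and runs from 250 bases before to 50 bases after the start, chr6:36678464-36678763 on the plus strand. For every window here the start is that of a RefSeq transcript, which can differ from where the printed span of the gene begins. The CDKN1A window lies inside its printed span. Capitals mark the GC box, GGGCGG on either strand, the letters bound by SP1-type factors.
CDKN1A: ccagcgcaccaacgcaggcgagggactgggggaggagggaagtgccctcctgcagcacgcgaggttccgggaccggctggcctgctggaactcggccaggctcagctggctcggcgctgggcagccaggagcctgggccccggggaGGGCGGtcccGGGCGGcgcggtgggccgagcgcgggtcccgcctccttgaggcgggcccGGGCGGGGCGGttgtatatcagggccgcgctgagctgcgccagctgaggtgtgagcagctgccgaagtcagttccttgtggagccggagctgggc
The window holds 4 GC boxes, which begin 104, 94, 45 and 40 bases before the start, the last pair sharing a base. A GC box is found in 45.0% of all 35116 RefSeq promoter windows. SP1 itself, a factor known to act on this promoter, had a mean of 10.0 ± 1.76 FPKM in the control and 11.7 ± 0.656 at 20 mM (log2 fold change 0.21, adjusted p = 0.334). KLF4, which binds GC-rich sites and is known to raise CDKN1A, rose from 25.1 ± 0.581 to 53.6 ± 1.58 FPKM (log2 fold change 1.07, adjusted p = 2.01e-06). It was 1 of 6 called higher among 30 tested regulators of the inhibitor genes at 20 mM, where 9 were called lower. KLF6 (0.07, adjusted p = 0.733 from limma) and SP3 (-0.06, adjusted p = 0.764) were not called, and SMAD3 was called lower (-0.46). Whether any of these factors acted on CDKN1A here was not tested.

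CDKN1B (ENSG00000111276, chr12:12715058-12722371, plus strand) encodes p27, which holds resting cells out of the cycle. Its FPKM was 3.67, 4.08 and 4.35 in the control, 3.03, 3.23 and 3.48 at 10 mM 2-DG and 2.92, 3.30 and 3.29 at 20 mM. All treated libraries lay below the lowest control library, and the doses overlapped. The log2 fold change was -0.25 at 10 mM (SE 0.0880, adjusted p = 0.0612), which missed the threshold, and -0.27 at 20 mM (adjusted p = 0.0351), which passed it. The call at 20 mM was lost in 5 of 9 fits that left out 1 library. These were the fits without control replicate 2 (adjusted p = 0.0898), control replicate 3 (0.113), 20 mM replicate 1 (0.128), 20 mM replicate 2 (0.0675) and 20 mM replicate 3 (0.0674). It was also lost with median-ratio or upper-quartile scaling. The values of CDKN1B imply a gene length of 9255 bases, against 2811 exon bases in GENCODE release 29. At the shorter length the means would be 13.3 ± 1.12 FPKM in the control, 10.7 ± 0.743 with 10 mM and 10.4 ± 0.709 with 20 mM, which changes its level beside the other inhibitors and leaves its ratios between groups as they are.

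CDKN1C (ENSG00000129757, chr11:2883213-2885773, minus strand) encodes p57, an imprinted inhibitor of the 11p15 region that is known to limit growth. Its FPKM was 3.09, 3.32 and 3.09 in the control, 1.73, 2.23 and 2.37 at 10 mM 2-DG and 2.12, 2.03 and 2.32 at 20 mM. Every treated library was below every control library, with 10 mM replicate 1 the lowest of all. CDKN1C fell at 10 mM (log2 fold change -0.43, SE 0.0984, adjusted p = 0.00959) and at 20 mM (log2 fold change -0.40, adjusted p = 0.00992), and the calls were made in 9 of 9 fits with 1 library left out. The mean at 20 mM was 31.9% below the control, a log2 ratio of mean FPKM of -0.56, which the pseudocount of 1 shrinks to the fold change above. Among 11 listed genes of the same 11p15 region, 8 were tested, and at 20 mM 2 were called higher, 2 lower and 4 neither, near the shares of all tested genes (15.4% higher and 21.6% lower). NAP1L4, a nucleosome assembly protein (log2 fold change -0.43), and CD81, a membrane protein (-0.47), fell, and CARS1, the cysteine tRNA ligase, rose (0.84). TSSC4 was the other gene called higher. That call was lost with no filter on reads and without control replicate 2, control replicate 3 or any single 20 mM library, which leaves a count of 1. PHLDA2, an imprinted neighbour, was abundant at 333 ± 33.8 FPKM in the control and 281 ± 4.08 at 20 mM (adjusted p = 0.0941).

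CDKN2C and CDKN2D were the detected members of the INK4 family, and both fell. CDKN2C (ENSG00000123080, chr1:50960745-50974633, plus strand) encodes p18. Its FPKM was 17.0, 16.8 and 16.4 in the control, 3.74, 4.65 and 5.14 at 10 mM 2-DG and 3.03, 3.30 and 2.92 at 20 mM. The control libraries were tightly grouped, the highest treated library was far below them, and the 2 doses did not overlap. The mean was 16.7 ± 0.298 FPKM in the control, 4.51 ± 0.707 with 10 mM and 3.08 ± 0.196 with 20 mM. The fall was -1.69 on the log2 scale at 10 mM (SE 0.0954, adjusted p = 3.16e-06) and -2.12 at 20 mM (adjusted p = 5.08e-07). CDKN2C ranked 15th from the bottom among the 16570 tested genes at 10 mM and again 15th at 20 mM.

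CDKN2D (ENSG00000129355, chr19:10566462-10569059, minus strand) encodes p19 of the INK4 family, and was almost as abundant as CDKN1A in the control. Its FPKM was 49.0, 39.3 and 41.5 in the control, 16.8, 24.5 and 20.4 at 10 mM 2-DG and 18.98, 20.1 and 17.7 at 20 mM. No treated library reached the lowest control, and the 20 mM libraries lay within the range of the 10 mM libraries. The mean went from 43.3 ± 5.08 to 20.6 ± 3.84 and 18.9 ± 1.19 FPKM. CDKN2D fell by 1.05 on the log2 scale at 10 mM (SE 0.125, adjusted p = 0.000241) and by 1.15 at 20 mM (adjusted p = 9.32e-05).

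The promoter windows of the 2 INK4 genes that fell are shown with the same GC boxes in capitals, together with the CCAAT box (CCAAT, bound by NF-Y) and the E2F core (TTCCCGC or TTGGCGC), each searched on both strands. RefSeq gives 3 starts for CDKN2C, of which the window with E2F letters is printed (chr1:50968456-50968755, plus strand). The window of CDKN2D is chr19:10568930-10569229 on the minus strand.
CDKN2C: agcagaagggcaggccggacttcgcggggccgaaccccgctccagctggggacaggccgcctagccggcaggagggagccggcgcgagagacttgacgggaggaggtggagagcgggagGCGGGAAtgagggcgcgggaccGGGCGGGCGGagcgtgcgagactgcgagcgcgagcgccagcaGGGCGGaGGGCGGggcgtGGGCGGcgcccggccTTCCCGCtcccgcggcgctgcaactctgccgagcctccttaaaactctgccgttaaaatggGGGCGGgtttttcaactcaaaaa
CDKN2D: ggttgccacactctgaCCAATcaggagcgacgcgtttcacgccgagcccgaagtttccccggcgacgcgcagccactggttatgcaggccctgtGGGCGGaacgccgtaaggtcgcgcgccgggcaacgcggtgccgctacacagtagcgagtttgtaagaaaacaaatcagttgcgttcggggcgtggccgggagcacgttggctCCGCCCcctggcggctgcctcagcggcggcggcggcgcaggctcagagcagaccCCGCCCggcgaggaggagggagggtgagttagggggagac
The CDKN2C window held 6 GC boxes, the pair farthest from the start overlapping, and 2 E2F cores, the latter 131 and 34 bases before the start, and the window was picked from 3 for these letters. Counted per gene over all its windows, 10.96% of all 27305 genes hold an E2F core. The CDKN2D window held 3 GC boxes and 1 CCAAT box, 234 bases before the start, and a CCAAT box occurs in 34.6% of all windows. A match describes letters and not binding.

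CDKN2A (ENSG00000147889, chr9:21967753-21995301, minus strand), which encodes p16 and, from another first exon, ARF, was listed at 0 in 8 of 9 libraries and at 0.0166 FPKM, or 1 read, in 20 mM replicate 1. CDKN2B (ENSG00000147883, chr9:22002903-22009363, minus strand), which encodes p15, was listed at 0 in all 9 libraries. At these depths 0 reads allow up to 3 reads, counting error only. For CDKN2B this is 0.0181 to 0.0239 FPKM across libraries at its annotated exon length of 4058 bases, which its zeros cannot check. For CDKN2A the annotated length of 4329 bases gives 0.0170 to 0.0224 FPKM, which is too low. At that length 1 read in 20 mM replicate 1 would lie below the listed 0.0166 FPKM, so the values imply a shorter length. The upper end also belongs to that library, which was not at 0. No fold change can be given for either gene, and no response to 2-DG was detectable. The antisense gene CDKN2B-AS1, which shares 341 exon bases with CDKN2A, was also listed at 0.

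The genes around this locus were examined after those zeros had been seen. From HACD4 to IZUMO3, 25 consecutive protein-coding genes over 3.55 Mb (chr9:20999515-24545946) had 1 read between them in all 9 libraries, the read of CDKN2A, and 24 were listed at 0 throughout. The stretch includes 16 interferon genes, which are silent in most unstimulated cells, but also MTAP, a methionine salvage enzyme, KLHL9, a ubiquitin ligase adaptor, and HACD4, a fatty acid enzyme. MTAP in particular is expressed in nearly all cell types. The stretch was bounded by the reads themselves, with no more than 2 for any of its protein-coding genes, so detected flanking genes follow from that rule. These were FOCAD, with 993 reads over 9 libraries (0.17 to 0.44 FPKM), and TUSC1, with 3586 reads (6.76 to 8.91 FPKM). Of 71 genes of any type between these flanks, 3 were above 0 in any library, namely CDKN2A and the processed pseudogenes KHSRPP1 and CLIC4P1, with 5 and 12 reads. MDA-MB-231 is known as a line that lacks CDKN2A, but DNA was not measured here, so absent genes and genes without transcripts cannot be told apart from these values.

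**Figure D2:**
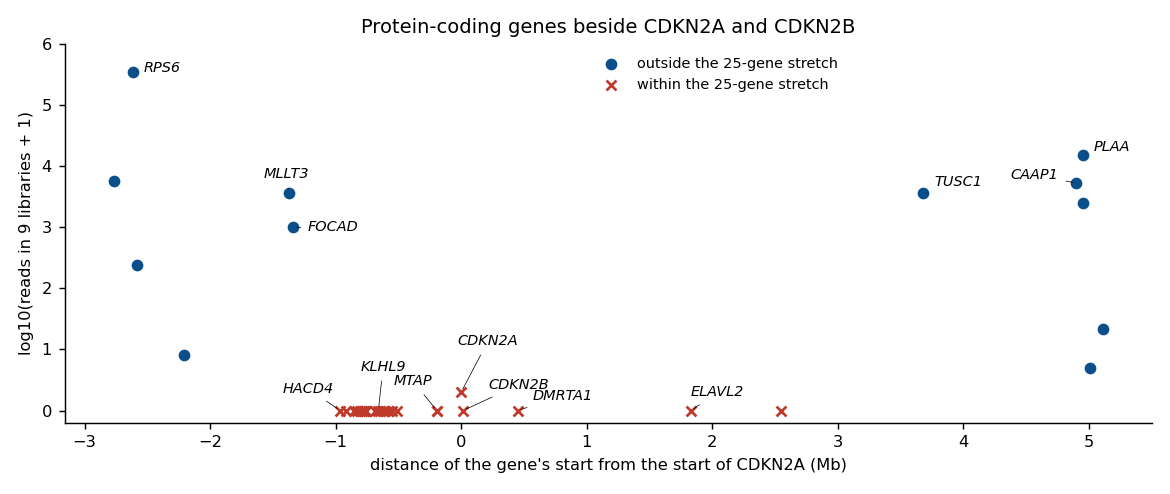
Reads of protein-coding genes beside CDKN2A, summed over 9 libraries and shown as log10(reads + 1) (y axis), against the distance of each gene's start from that of CDKN2A in Mb (x axis). Crosses mark the 25 consecutive genes with 1 read in all, circles the genes outside them, such as FOCAD with 993 and TUSC1 with 3586 reads.

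CDKN3 (ENSG00000100526, chr14:54396849-54420218, plus strand) encodes the phosphatase KAP, and its transcript is known to peak late in the cell cycle. Its FPKM was 29.7, 25.5 and 32.0 in the control, 6.21, 7.47 and 8.60 at 10 mM 2-DG and 6.41, 6.09 and 5.09 at 20 mM. Every treated library was far below every control library, and the doses overlapped. The mean was 29.1 ± 3.29 FPKM in the control, 7.43 ± 1.20 with 10 mM and 5.86 ± 0.685 with 20 mM. CDKN3 fell by 1.84 on the log2 scale at 10 mM (SE 0.123, adjusted p = 7.89e-06) and by 2.13 at 20 mM (adjusted p = 1.75e-06), ranking 10th and 12th from the bottom of all tested genes. Its promoter window (chr14:54396757-54397056, plus strand) is shown for the CHR (TTTGAA) and CCAAT letters that mark promoters of many late cell cycle genes.
CDKN3: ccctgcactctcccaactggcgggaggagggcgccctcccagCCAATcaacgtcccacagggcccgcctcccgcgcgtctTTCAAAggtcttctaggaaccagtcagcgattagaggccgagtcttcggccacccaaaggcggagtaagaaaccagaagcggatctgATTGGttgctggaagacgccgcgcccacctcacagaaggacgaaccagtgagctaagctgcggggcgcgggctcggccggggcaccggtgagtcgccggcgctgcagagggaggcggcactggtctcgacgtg
The capitals mark 1 CHR on the minus strand, 170 bases before the RefSeq start, and 2 CCAAT boxes. These lie 208 bases before that start and, on the minus strand, 83 bases before it. The printed span of CDKN3 begins inside this window, between the CHR and the second CCAAT box. The window has no GC box or E2F core match. TATAAA, the TATA box, was searched as well and is in none of the inhibitors' windows, against 11.5% of all windows. The CHR letters occur in 15.2% of all promoter windows. Counted per gene over all windows of a gene, CHR letters were present in 13 of 20 G2 and mitosis genes with a RefSeq window and in 18.2% of all 27305 genes, and CCAAT letters in 18 of 20 and 39.7%. Among the 7 inhibitors with a window, CDKN3 was the one with a CHR match.

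**Figure D3:**
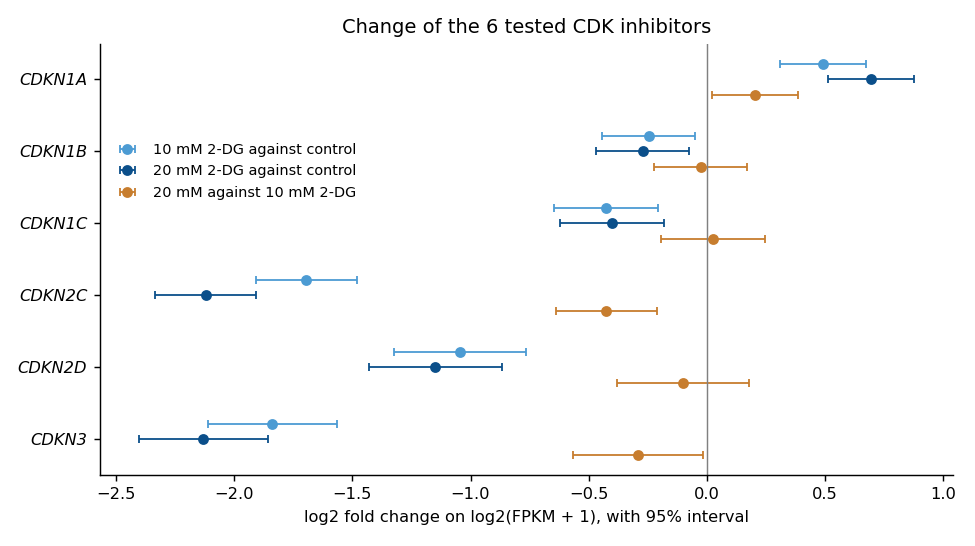
Log2 fold change on log2(FPKM + 1) with its 95% interval (x axis) for the 6 tested CDK inhibitors (y axis) in 3 comparisons. CDKN1A lies to the right of 0 at both doses, CDKN2C, CDKN2D and CDKN3 lie at -1.05 or lower at both doses, and the intervals for 20 mM against 10 mM (orange) lie between -0.64 and 0.39.

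The 2 doses were then set against each other. None of the 6 inhibitors passed the adjusted threshold, which 0% of all tested genes passed. Limma gave an unadjusted p under 0.05 for 1140 genes in this comparison, and both limma and limma-voom called 0 genes after adjustment. CDKN2C came closest, lower at 20 mM by a log2 fold change of -0.43 (95% interval -0.64 to -0.21, unadjusted p = 0.00128, adjusted p = 0.282), and the libraries of the doses did not overlap, which held for 11.9% of all genes. CDKN1A also did not overlap between the doses, with a difference of 0.20 (0.02 to 0.39, adjusted p = 0.675). For CDKN3 the difference was -0.29 (-0.57 to -0.02, adjusted p = 0.705), with overlapping libraries. The intervals for CDKN1B (-0.22 to 0.17), CDKN1C (-0.19 to 0.25) and CDKN2D (-0.38 to 0.18) included 0, so changes within these bounds in either direction remain possible.

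FPKM is scaled by gene length, so the levels of the inhibitors were added and set beside each other at the lengths that the values imply, which for CDKN1B is the longer one. The summed FPKM of the inhibitors was 151, 133 and 140 in the control libraries, 95.1, 110 and 98.2 at 10 mM and 113, 106 and 99.7 at 20 mM, so every treated library was below every control. In the control CDKN1A and CDKN2D were the most abundant, with 31.8% ± 1.29 and 30.6% ± 1.66 of the sum, and their FPKM ranges overlapped. CDKN3 (20.6%) and CDKN2C (11.9%) followed, and CDKN1B and CDKN1C made up 2.88% and 2.25%. At its GENCODE length CDKN1B would make up 8.88% ± 1.10 of the sum in the control and 9.22% ± 1.07 at 20 mM, with CDKN1A at 29.8% and 64.3%. At 20 mM 2-DG CDKN1A alone took 68.7% ± 1.59 of the sum (62.7% ± 3.83 at 10 mM), CDKN2D 17.8%, CDKN3 5.50% and CDKN2C 2.90%. FPKM ranges of neighbouring genes in the order of levels did not overlap at 10 mM, nor at 20 mM between CDKN1A, CDKN2D, CDKN3 and CDKN2C, whereas CDKN2C and CDKN1B overlapped there. At its GENCODE length CDKN1B would instead stand between CDKN2D and CDKN3 at both doses, with 9.61 to 10.9 FPKM at 20 mM and no overlap with either. The ratio of CDKN1A to the INK4 sum was 0.747 ± 0.0273 in the control, 2.57 ± 0.448 with 10 mM and 3.33 ± 0.281 with 20 mM, and that of CDKN2D to CDKN2C went from 2.59 ± 0.275 to 4.58 ± 0.656 and 6.14 ± 0.111. These are descriptions of RNA and carry no test.

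**Figure D4:**
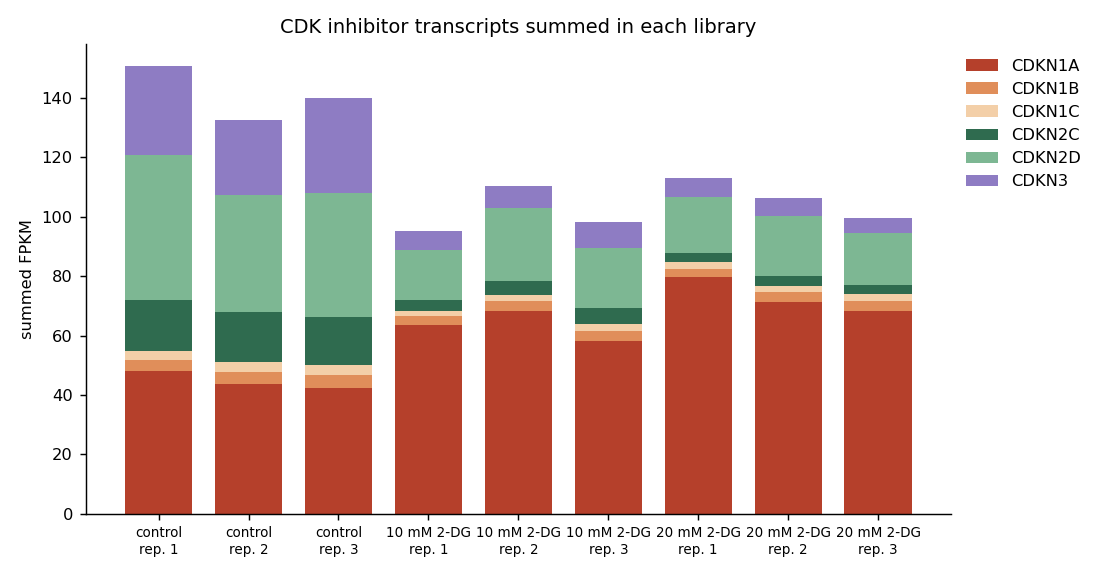
Summed FPKM of the CDK inhibitors in each of the 9 libraries (x axis), stacked by gene on a linear axis that starts at 0. The sum is 133 to 151 FPKM in the control and 95.1 to 113 FPKM with 2-DG, and CDKN1A (red) fills the larger part of the treated bars.

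The kinases and cyclins that the inhibitors act on were mostly lower as well. Of 15 CDKs, cyclins and pocket proteins, 12 were called lower and 2 higher at 20 mM 2-DG, with a median log2 fold change of -0.79 against -0.02 for all tested genes. Of all tested genes, 21.6% were called lower and 15.4% higher at 20 mM. At 10 mM, 11 were called lower and 2 higher (median -0.63), where 17.5% and 12.1% of all tested genes were called. CDK1, the mitotic kinase, fell from 21.1 ± 3.37 to 4.09 ± 0.617 FPKM (log2 fold change -2.12), and its cyclins CCNA2 (-2.12) and CCNB1 (-1.58) fell as well. CDK2, the main target of p21 and p27, fell from 13.0 ± 0.842 to 5.60 ± 0.299 FPKM (-1.09, adjusted p = 1.92e-05). CDK4, the partner of the INK4 proteins, had 36.4 ± 0.434 FPKM in the control and 35.4 ± 0.673 at 20 mM (-0.04, adjusted p = 0.752). CDK6, the other INK4 target, was called higher (3.45 ± 0.530 to 4.81 ± 0.362 FPKM, log2 fold change 0.39, adjusted p = 0.0331). That call was lost without control replicate 1, control replicate 2, 20 mM replicate 2 or 20 mM replicate 3. It was also lost with no filter on reads (adjusted p = 0.0806) and with the replicate number as a block (adjusted p = 0.0640). At 10 mM the call of CDK6 was lost without control replicate 1, control replicate 2, 10 mM replicate 1, 10 mM replicate 3 or 20 mM replicate 2. It was also lost with no filter (adjusted p = 0.0838), with the 6 libraries of the comparison alone (0.0727) and with the block (0.0665). Each of these leaves 1 gene of the list called higher. Of the cyclins D, CCND1 (-0.64) and CCND3 (-0.81) fell and CCND2 rose (0.75), the last from 0.516 ± 0.0534 to 1.55 ± 0.0297 FPKM. The pseudocount of 1 shrinks the fold change of CCND2 at these low levels.

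Enzymes that set the phosphorylation of CDKs and proteins that turn over the CIP/KIP inhibitors were examined next. Of 12 phosphorylation enzymes, 6 were called lower and 1 higher at 20 mM (median -0.36), where 21.6% and 15.4% of all tested genes were called. The phosphatases CDC25C (-1.67) and CDC25A (-1.26), which switch CDKs on, and the inhibitory kinases PKMYT1 (-1.42) and WEE1 (-0.77) fell, and PPM1A, a phosphatase of the CDK activation loop, rose (0.35). A second enzyme of this list was called higher without control replicate 3 or with upper-quartile scaling. Of 17 turnover genes, 9 were called lower and 0 higher at 20 mM (median -0.30), beside the same shares of all tested genes. At 10 mM 8 were called lower (median -0.22), against 17.5% of all tested genes. SKP2, which brings p27 to the ubiquitin ligase, fell from 0.771 ± 0.0440 to 0.315 ± 0.0165 FPKM (-0.43, adjusted p = 0.000286), and its cofactor CKS1B fell (-0.80). The pseudocount of 1 shrinks the fold change of SKP2 at these low levels. DTL (-0.70) and PCNA (-1.15), which direct p21 to destruction during DNA synthesis, also fell. Protein levels were not measured.

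Factors known to switch the inhibitor genes on or off are given one by one, since their counts say little about them as a group. Of 30 tested transcription regulators, 6 were called higher and 9 lower at 20 mM, where 15.4% and 21.6% of all tested genes were called, and their median was -0.02, against -0.02 for all tested genes. Besides KLF4, MYC, which represses CDKN1A and CDKN2B (0.49), CEBPB (0.57), EGR1 (0.57) and FOXO3, which raises CDKN1B (0.44), were among those that rose. EGR1 was higher at 10 mM (55.4 ± 5.999 FPKM) than at 20 mM (41.6 ± 5.10) by its mean, without a call between the doses (adjusted p = 0.486). MYBL2 (-2.29), CEBPD (-1.53), FOXM1 (-1.26), E2F1 (-1.24) and EZH2, the Polycomb enzyme (-0.93), fell. MYBL2 and FOXM1 take part in the complexes that act on CHR promoters. LIN9, LIN54 and E2F4 of the same list also take part in such complexes and were not called at 20 mM. Their log2 fold changes were -0.22 for LIN9 (adjusted p = 0.140 from limma), 0.06 for LIN54 (0.817) and -0.04 for E2F4 (0.588). Whether any of these factors acted on CDKN3 here was not tested.

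Genes of G2 and mitosis fell almost throughout. Of 24, 23 were called lower at 20 mM, against 21.6% of all tested genes, and the median of the list was -1.62 (-1.28 at 10 mM). Among those called lower were KIF20A (-2.06), TOP2A (-2.02) and PLK1, a mitotic kinase (-1.98). NUSAP1 was the exception, at 0.136 FPKM or less on average. CDK1, CCNA2, CCNB1 and CCNB2 were also in the list of CDKs and cyclins, and CDC20 and CKS2 in that of turnover genes. The counts of these lists are therefore not separate. The falls of CDKN2C and CDKN3 at 20 mM (-2.12 and -2.13) stood beside those of CCNA2 and CDK1 (both -2.12), and that of CDKN2D (-1.15) was smaller than the median of this list. How far the cell cycle stage of the cultures moved with these values was not tested.

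**Figure D5:**
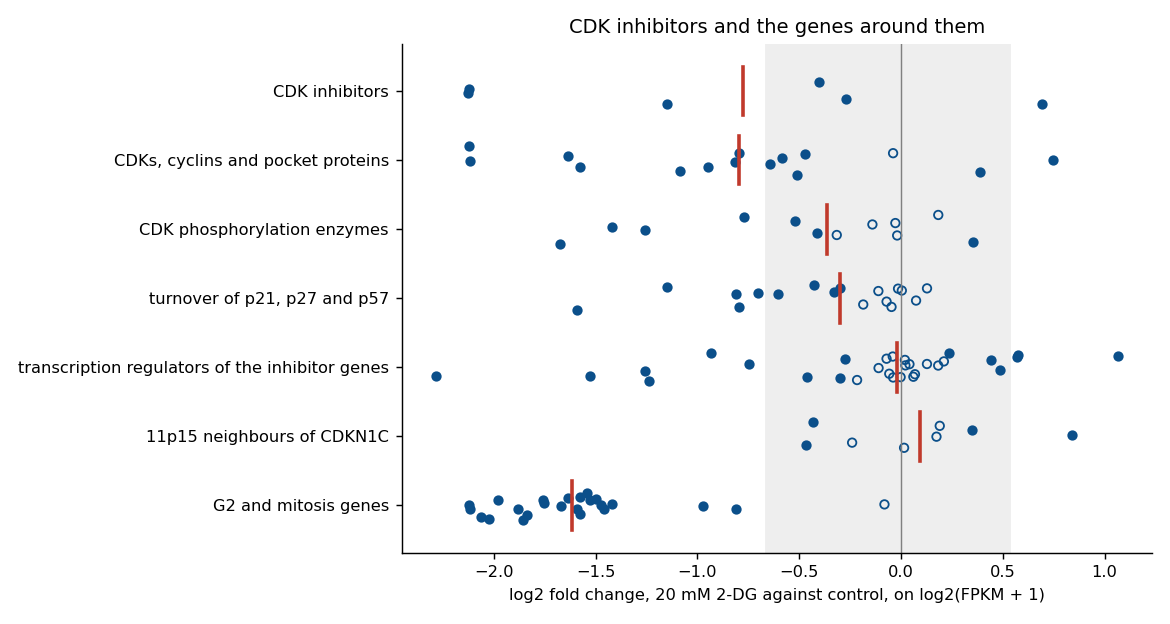
Log2 fold change at 20 mM 2-DG against control on log2(FPKM + 1) (x axis) for the 6 tested CDK inhibitors and for the tested genes of 6 lists (y axis). Filled points were called, open points were not, red bars are medians and the grey band spans the 5th to the 95th percentile of all tested genes, -0.67 to 0.53. CDKN2C and CDKN3 sit at the left end, beside the G2 and mitosis genes, whose median is -1.62.

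For each tested inhibitor, the 3 protein-coding genes with the most similar profile were taken by Pearson's r of log2(FPKM + 1) over 9 libraries, among 9818 genes. Since the libraries form 3 groups, r mostly reflects the group means, and it is given as a description. CDKN2C was most like SRSF7 (r = 0.998), KIFC1 (0.998) and UBE2C (0.997), and CDKN3 was most like HMGN2 (0.996), TACC3 (0.996) and PIF1 (0.995). The genes ranked first, SRSF7 for CDKN2C and HMGN2 for CDKN3, are a splicing factor and a chromatin protein. KIFC1 and TACC3 are mitotic spindle proteins, and UBE2C serves the ubiquitin ligase of mitosis. CDKN2D was most like MXD3 (0.998), a MAX partner, SLC25A11 (0.997) and HCFC1R1 (0.996). CDKN1A was most like SIRT7 (0.995), LZTR1 (0.993) and TMED9 (0.993), the last a cargo receptor of the secretory pathway that rose from 95.8 to 199.9 FPKM at 20 mM. CDKN1B was most like SFR1 (0.991), MMUT (0.985) and UBE2N (0.978). CDKN1C had the lowest values, with CEP131 (0.966), GINS2 (0.960) and SRGN (0.959).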

How the data were processed

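RNA of 9 libraries was analysed, 3 per condition. The authors deposited FPKM values, with 1 file per library, and the submitters' processing notes name GRCh38 (hg38). The aligner, the counting tool and the annotation are not given in the sources used here. The study's methods name a test for counts. FPKM values are not counts, so log2(FPKM + 1) was fitted with limma 3.58.1 (R 4.3.3), with a variance trend, 3 groups in 1 fit, no block and Benjamini-Hochberg adjustment over all genes tested. A pseudocount of 1 understates the change of low genes. Whole reads were recovered from FPKM, gene lengths and the library total that makes them whole (within 0.01). GENCODE release 29 exon lengths gave whole reads for 16602 of the 32806 genes above 0. For the other 16204, the 6 tested inhibitors among them, the shortest length up to 200000 bases that made the values whole was used. Such a search can find a wrong length. The recovered reads served the filter (10 or more reads, at median depth, in 3 libraries and 15 in all), the floors and limma-voom. They are not the authors' counts. Totals of 30974968 to 40843638 reads limit precision at low FPKM. No 2 replicates agreed within sampling noise, and their spread differed between groups. The chi-square per gene between 2 replicates was 4.69 to 6.64 at 20 mM, 14.3 to 21.8 in the control and 26.7 to 57.2 at 10 mM. The fit shares 1 spread per gene over the 3 groups, so SE and p-values do not measure the spread of each group. Fits were tested on simulated data with 1 spread for every gene and group, unlike these libraries, so that test cannot give the error rate here. Promoter windows are from RefSeq (GRCh38.p14), with 7 of 8 inhibitors matched; CDKN1C was not.

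The inhibitors and the gene lists were chosen with earlier results of these data known. Named genes were the 8 inhibitors, list members with the largest changes at 20 mM 2-DG per direction or a role that bears on an inhibitor, and the 3 genes most like each inhibitor; the neighbours of CDKN2A outside the list and TSSC4 were named after their values were seen. The results of 1 list are not reported here. Leukocyte and endothelial markers were checked too, with 3 of 4 and 2 of 3 under 1 FPKM in every library. Their summed FPKM was low and lower with 2-DG, at 2.45 to 3.86 in the control and 1.16 to 1.83 at 20 mM for leukocytes (mostly CD14) and 1.47 to 1.95 and 0.854 to 1.05 for endothelial cells (mostly PECAM1); their part in the results was not tested. Alternatives covered the pseudocount, filter, scaling, fit, thresholds, replicate block and single libraries.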

Additional observations from a re-analysis of the deposited data

How the results depend on the processing

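The direction of the 6 tested inhibitors against the control was the same under every alternative run. When calls were made by size, at a log2 fold change beyond 1 with p below 0.05 before adjustment, the inhibitors called higher went from 1 to 0 at 10 mM and from 1 to 0 at 20 mM, and those called lower from 5 to 3 at 20 mM, by construction, since CDKN1A, CDKN1B and CDKN1C changed by less. CDKN1B was the inhibitor whose calls moved. At 10 mM it passed the threshold with limma-voom (-0.31, adjusted p = 0.0298), without the variance trend (adjusted p = 0.0304) and with limma-voom on median-ratio factors, an alternative chosen after seeing the data (-0.28, adjusted p = 0.0473). At 20 mM it missed the threshold with median-ratio (-0.23, adjusted p = 0.0550) and upper-quartile factors (-0.20, adjusted p = 0.0932), and the fits without 1 library gave -0.32 to -0.23. The cause was not tested. Between the doses, differences near 0 changed sign when 1 library was left out. The range over such fits was -0.063 to 0.018 for CDKN1B (above 0 without 10 mM replicate 3 or 20 mM replicate 1), -0.065 to 0.086 for CDKN1C (below 0 without 10 mM replicate 1 or 20 mM replicate 3) and -0.23 to 0.026 for CDKN2D (above 0 without 10 mM replicate 2). Correlations of deviations lay between -0.41 and 0.29 over 9 pairs of libraries with the same replicate number. Over 18 pairs with other numbers they lay between -0.23 and 0.52, highest for control replicate 1 with 10 mM replicate 2. What such pairs share was not tested. With the replicate block 1 inhibitor was called higher and 4 lower at 10 mM, 1 higher and 5 lower at 20 mM, and 0 between the doses, as without it; CDK6, among the other named genes, lost its calls under the block. Of the list counts, 899 results stayed within 1.5 times and 61 did not, 21 of them under the fold threshold and 40 under other settings.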
